A study of Mus musculus with 20 samples.

Results

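Cells at the start of meiotic prophase, sorted as a mixed leptotene and zygotene fraction, were compared with sorted spermatogonia, the germ cells that still divide by mitosis. The comparison takes 7 of the 20 arrays of the series: the 3 arrays labelled leptotene-zygotene and the 4 labelled spermatogonia. A probe set entered if its log2 signal was at least 5 in at least 2 of these 7 arrays, which kept 19079 of 45037 probe sets and, through 1 probe set each, 10677 genes. Both fractions came from testes of male C57BL/6 x DBA/2J F1 mice aged 10 to 16 weeks, stained with Hoechst 33342 and sorted by flow cytometry, and the RNA was hybridised to Affymetrix MOE430 version 2 arrays. Each RNA was a pool of cells from several sorts, so an array stands for a pool and not for 1 animal, and the leptotene-zygotene fraction holds both stages together. The fraction between them in development, pre-leptotene cells, is used here only to place the genes that differed. Values are GC-RMA signals as deposited, on the log2 scale unless stated otherwise, and a difference is the leptotene-zygotene mean minus the spermatogonia mean.

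Spermatogonia renew by mitosis, copy their DNA a last time in the pre-leptotene stage and then enter prophase. In leptonema the chromosomes build an axis and recombination starts with programmed breaks made by SPO11, and in zygonema homologues begin to pair and the synaptonemal complex begins to form. Many genes used later, for the sperm tail and for the germline small RNAs called piRNAs, are known to be transcribed at or after the next stage, pachynema.

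Across the 7 arrays the median linear signal was 11.1 to 12.1 and 38.5% to 39.8% of probe sets had a log2 signal of at least 5. Spermatogonia replicate 4 stood apart: the array it correlated with best was leptotene-zygotene replicate 3 (r = 0.932), whereas the other 6 arrays each correlated best with an array of their own fraction. These 2 arrays belong to the same array project, as do leptotene-zygotene replicate 1 and spermatogonia replicate 1, and the remaining 3 arrays come from a project each. The fit rested on all 20 arrays and 8 fractions, which share 1 estimate of the spread for each probe set. The labels call the samples biological replicates.

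The labels were set against marker genes first, and the markers bore them out only in part. Spo11 lay at 7.36, 8.75 and 8.79 in the 3 leptotene-zygotene arrays, against 4.30, 6.63, 5.70 and 6.52 in the 4 spermatogonia arrays. All leptotene-zygotene arrays were above all spermatogonia arrays, with a difference of 2.51 that did not pass the test (standard error 0.71, adjusted p = 0.0737 from limma). Sycp3, a component of the chromosome axis, was at 13.24, 13.61 and 13.30 in leptotene-zygotene arrays, and already at 12.44, 12.37, 12.92 and 12.55 in spermatogonia arrays (difference 0.81, adjusted p = 0.0635). Dmc1, the meiotic strand-exchange protein, did not separate the fractions, at 8.60, 9.40 and 9.12 in leptotene-zygotene arrays and 9.08, 9.74, 10.37 and 9.28 in spermatogonia arrays.

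None of the spermatogonial markers named here passed the test in either direction. Zbtb16, a transcription factor of undifferentiated spermatogonia, measured 10.66, 10.21 and 9.85 in leptotene-zygotene arrays, against 9.95, 8.28, 8.57 and 10.55 in spermatogonia arrays. Kit, the receptor of differentiating spermatogonia, measured 10.61, 12.22 and 11.92 in leptotene-zygotene arrays, against 10.51, 10.62, 11.50 and 11.13 in spermatogonia arrays. Of 21 stem and progenitor genes tested, 0 rose and 0 fell in limma and the median difference was 0.65, with 16 above 0. At an unadjusted p under 0.05, 3 were higher and 1 lower, beside 9.73% and 8.46% of all genes. Without spermatogonia replicate 4 the fit called 2 rises, and without leptotene-zygotene replicate 1 or 3 it called 1 rise. Without spermatogonia replicate 2 it called 1 fall and the median was 0.33. Id4, a marker of stem spermatogonia, had the highest difference, 1.75 (adjusted p = 0.102), and the lowest difference in the list was -1.97. In 1 of the 21 all leptotene-zygotene arrays were below all spermatogonia arrays, and in 0 all were above. Over all genes tested, 6.51% were below in this way and 6.46% above. By these markers the arrays labelled spermatogonia held meiotic transcripts and those labelled leptotene-zygotene held spermatogonial ones, so both fractions are called by their labels below with that limit. In such bulk RNA, fewer cells of a type and less RNA per cell cannot be told apart.

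Between the fractions, 231 probe sets rose in leptotene-zygotene cells and 194 fell, at a Benjamini-Hochberg adjusted p under 0.05 in limma. These are 1.21% and 1.02% of all probe sets tested, 2.23% together. By genes, 143 rose (1.34%) and 145 fell (1.36%), 2.70% of the genes tested, and in 277 of these 288 the arrays of the fractions did not overlap. At an unadjusted p under 0.05, 1039 genes were higher (9.73%) and 903 lower (8.46%), and 53.3% of all differences were above 0. The median difference over all genes was 0.04. The count rests heavily on single arrays: it was 47 probe sets without leptotene-zygotene replicate 2, 70 without leptotene-zygotene replicate 3, 161 without spermatogonia replicate 1 and 1494 without spermatogonia replicate 4. Of the genes called, 11 that rose and 10 that fell were called in each of the 7 fits that left out 1 array.

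The genes that rose were mostly low in both early fractions and high later. Their median level was 5.88 in spermatogonia, 5.92 in pre-leptotene cells, 8.02 in leptotene-zygotene cells, 9.38 in early-pachytene, 10.57 in mid-pachytene, 11.12 in late-pachytene and 11.21 in diplotene cells, then 10.57 in round spermatids. Of the 143 genes, 122 had a mid-pachytene mean above that of leptotene-zygotene cells, and 46 had their highest mean in late-pachytene cells and 48 in diplotene cells, that is 32.2% and 33.6%, where all genes tested gave 15.0% and 7.79%. Only 14 of the 143 were highest in leptotene-zygotene cells (9.79%, beside 13.7% of all genes tested). In pre-leptotene cells 126 of the 143 were nearer to the spermatogonia mean than to the leptotene-zygotene mean.

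The genes that fell had the other profile. Their median level was 8.66 in spermatogonia, 6.49 in pre-leptotene cells and 5.98 in leptotene-zygotene cells, and 126 of the 145 were nearer to the leptotene-zygotene mean already in pre-leptotene cells. In 111 of them (76.6%, beside 15.6% of all genes tested) spermatogonia was the highest of the 8 fractions, and in 32 it was round spermatids (22.1%, beside 20.3%). The fractions are compared here with the means that selected these genes, so the positions are a description.

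**Figure D1:**
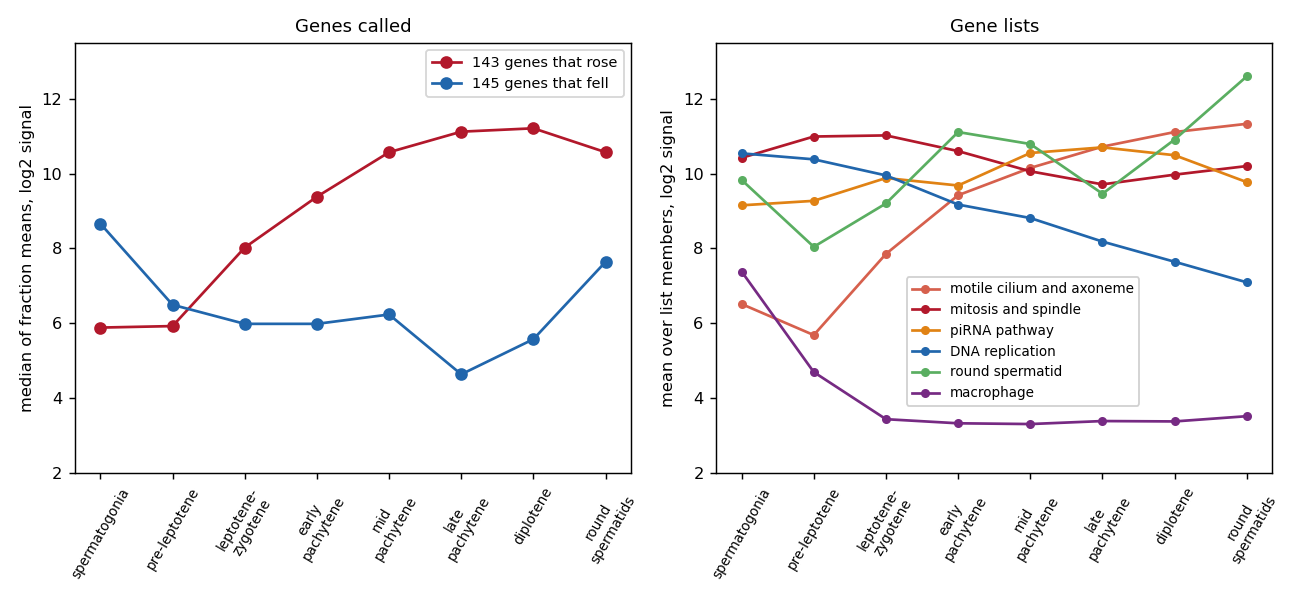
Left, the median over the 143 genes that rose and the 145 that fell of their mean log2 GC-RMA signal in each of the 8 sorted fractions, in developmental order; right, the mean over the tested members of 6 gene lists. Genes that rose stood at 5.88 in spermatogonia and 5.92 in pre-leptotene cells before 8.02 in leptotene-zygotene cells, while the macrophage list was highest in spermatogonia, at 7.38.

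Cers3, a ceramide synthase that makes ceramides with very long acyl chains, was at 10.18, 11.31 and 10.16 in leptotene-zygotene arrays, against 4.17, 6.74, 4.75 and 5.61 in spermatogonia arrays, the largest rise. The difference was 5.24 (standard error 0.80, adjusted p = 0.00468 from limma), or 4.97 with values under 5 raised to 5, and it was called in each of the 7 fits without 1 array. Chst1, a carbohydrate sulfotransferase, was at 8.55, 9.77 and 8.42 in leptotene-zygotene arrays and at 5.88, 6.67, 5.60 and 5.61 in spermatogonia arrays, with no overlap (difference 2.98, adjusted p = 0.00383). Smpd5, a sphingomyelinase, rose by 2.88 and B3galnt1, a glycosyltransferase of glycolipids, by 2.78, at adjusted p = 0.05 and 0.0175, both with arrays that did not overlap. The Smpd5 value in spermatogonia replicate 2, 7.17, came close to that in leptotene-zygotene replicate 1, 7.40.

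Meiob, which encodes a single-strand DNA binding protein needed for meiotic recombination, had the next largest rise once predicted genes were passed over. It was at 8.22, 9.72 and 6.18 in leptotene-zygotene arrays, against 4.07, 3.64, 4.32 and 3.95 in spermatogonia arrays. With all spermatogonia arrays under 5, Meiob passed the filter through leptotene-zygotene arrays alone and had to differ. The difference was 4.04 (standard error 0.76, adjusted p = 0.0155), or 3.04 with values under 5 raised to 5, and its call was lost without leptotene-zygotene replicate 2, the highest array. It was the 1 member of 17 strand-exchange genes tested that rose (5.88%, beside 1.34% of all genes). The other 16 did not pass and the list's median was -0.02.

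The other large rises were in genes of the sperm tail, of transport and of unknown or testis-restricted function. Rsph1, a radial spoke protein of motile cilia and sperm tails, measured 11.41, 12.36 and 13.20 in leptotene-zygotene arrays and 8.99, 10.55, 8.51 and 10.23 in spermatogonia arrays. Cfap65, needed for the sperm flagellum, rose by 2.87, Pde1c, a calmodulin-dependent phosphodiesterase, by 2.74, and Abcc12, an ABC transporter, by 2.90. Glipr1l2 rose by 4.01, with leptotene-zygotene arrays at 9.57, 10.77 and 9.97 and spermatogonia arrays at 5.81, 6.79, 5.64 and 6.14. Mgat4d rose by 3.77 on its brighter probe set, while its other probe set differed by 1.54 and did not pass.

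**Figure D2:**
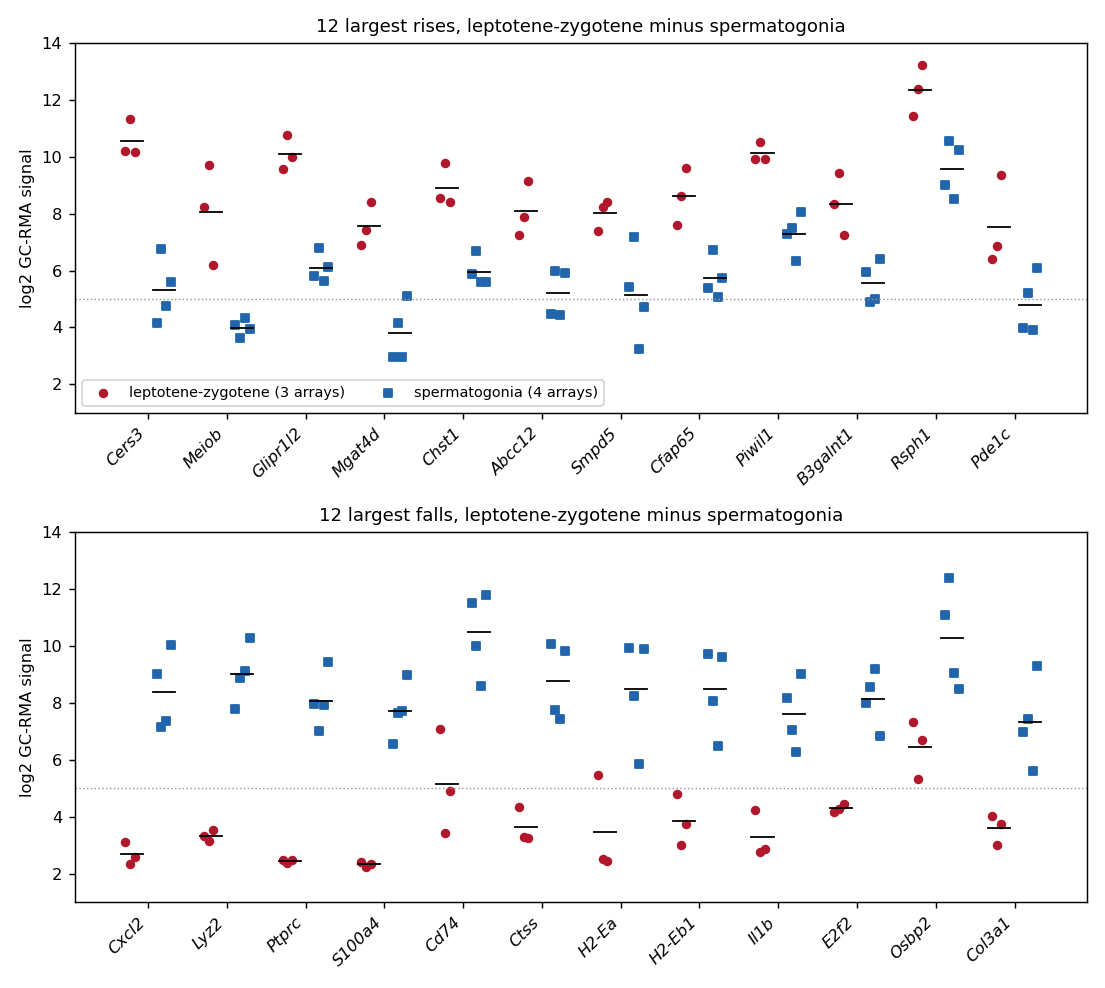
Log2 GC-RMA signal of the 12 largest rises and the 12 largest falls in each of 3 leptotene-zygotene arrays (circles) and 4 spermatogonia arrays (squares), with the group mean as a bar and the filter level of 5 as a dotted line. Fractions do not overlap in any of these genes, which the rule for naming them required; E2f2 in leptotene-zygotene arrays sits between 4.18 and 4.45, against 6.82 to 9.19 in spermatogonia arrays.

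Genes of the motile cilium and axoneme, the microtubule core of the sperm tail, gave the highest list median. Of 23 tested members 6 rose (26.1%, beside 1.34% of all genes) and 0 fell, and the median difference was 1.47, beside 0.04 over all genes. Rsph1, Cfap54, the dynein heavy chains Dnah8, Dnah2 and Dnah1, and Ccdc39, which sets the repeat of the axoneme, were the 6 that rose, by 2.75, 2.57, 2.06, 1.71, 1.62 and 2.02. Cfap54 lay at 5.92, 6.17 and 7.11 in leptotene-zygotene arrays, against 3.35, 3.81, 3.55 and 4.61 in spermatogonia arrays, and was called in all 7 fits without 1 array. With all spermatogonia arrays under 5, Cfap54 passed the filter through leptotene-zygotene arrays alone and had to differ. When values under 5 were raised to 5 its difference was 1.40 (adjusted p = 0.0115 in limma). The transcription factor Rfx3 had a difference of -0.80 and Rfx2, a regulator of spermatid cilium genes, 0.97, and neither passed. The count was 8 without spermatogonia replicate 4, 4 without spermatogonia replicate 2, 2 without spermatogonia replicate 3, and 1 without spermatogonia replicate 1, leptotene-zygotene replicate 2 or leptotene-zygotene replicate 3. Without leptotene-zygotene replicate 3 the median was 0.84. The mean of the list was highest in that array, at 8.89, beside 7.05 and 7.61 in the other leptotene-zygotene arrays and 5.77 to 7.11 in spermatogonia arrays.

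Further genes of cilia rose outside the list and were picked after their values were seen. Dnah7a, a dynein heavy chain, rose by 2.45 (adjusted p = 0.00457 in limma). With all spermatogonia arrays under 5, it passed the filter through leptotene-zygotene arrays alone and had to differ. When values under 5 were raised to 5 the difference was 0.63 and did not pass (adjusted p = 0.128). Dnaaf4, a dynein assembly factor, rose by 1.80, and Ttll8, a tubulin glycylase, by 2.59. Ttc26 and Ttc30a1, subunits of the intraflagellar transport machinery, rose by 1.79 and 1.28. The centrins and tektins did not pass: of 9 tested, 0 rose and 0 fell, with a median of 0.80 (0.28 without leptotene-zygotene replicate 3). At an unadjusted p under 0.05, 1 was higher, beside 9.73% of all genes. Cetn1, the testis centrin, was at 9.43, 10.09 and 11.92 in leptotene-zygotene arrays and 9.13, 10.30, 8.21 and 8.87 in spermatogonia arrays, which overlap (difference 1.35, adjusted p = 0.216).

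The cell cycle divided in 2 directions. Of 29 mitosis and spindle genes 4 rose (13.8%, beside 1.34% of all genes) and 0 fell, with 27 differences above 0 and a median of 0.56. Of 35 DNA replication genes 0 rose and 4 fell (11.4%, beside 1.36% of all genes), with 30 differences below 0 and a median of -0.42. In 14 members of the mitosis list all leptotene-zygotene arrays were above all spermatogonia arrays and in 0 all were below, and in the replication list the numbers were 0 above and 14 below, where 6.46% and 6.51% of all genes did so.

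The 4 that rose were Cdc20, the activator of the anaphase promoting complex, Bub1b, a kinase-like protein of the spindle checkpoint, Cenpf, a kinetochore protein, and Prc1, which bundles microtubules of the spindle midzone. Cdc20 measured 13.45, 13.41 and 13.46 in leptotene-zygotene arrays, against 12.86, 12.31, 12.64 and 12.24 in spermatogonia arrays (difference 0.93, standard error 0.20, adjusted p = 0.0254). Prc1 had the largest difference of the 4, 1.22, and Cenpf and Bub1b differed by 1.13 and 0.90. Aurka and Plk1, mitotic kinases, differed by 1.52 and 1.01 with no overlap of arrays but did not pass (adjusted p = 0.0677 and 0.0968). The 4 calls fell to 0 without leptotene-zygotene replicate 2 or 3 or spermatogonia replicate 2, and to 1 without spermatogonia replicate 1 or 3. Outside the list, and picked after their values were seen, Cks2, a partner of cyclin-dependent kinases, rose by 1.41, Ccnf, cyclin F, by 1.42, Bub3 by 1.27, and the kinesin Kif18b by 1.06. The kinesin Kif2c rose by 1.01 on its brighter probe set, while its other probe set differed by -0.93 and did not pass.

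The 4 that fell were E2f2, a transcription factor of S-phase genes, Tk1, thymidine kinase, Cdc6, which loads the replicative helicase, and Rrm2, a subunit of ribonucleotide reductase. E2f2 was at 4.18, 4.28 and 4.45 in leptotene-zygotene arrays, against 7.99, 8.56, 9.19 and 6.82 in spermatogonia arrays. It fell by 3.84 (standard error 0.41, adjusted p = 0.000308), its second probe set fell by 2.88, and it was called in all 7 fits without 1 array. With all leptotene-zygotene arrays under 5, E2f2 passed the filter through spermatogonia arrays alone and had to differ. With values under 5 raised to 5 its difference was -3.14 (adjusted p = 0.00164 in limma). Tk1 was at 7.16, 7.10 and 7.02 in leptotene-zygotene arrays, against 8.31, 8.79, 9.19 and 7.95 in spermatogonia arrays, and fell by 1.47. Cdc6 and Rrm2 both fell by 1.21, Rrm2 on 1 of its 3 probe sets. Spermatogonia replicate 3 was the highest array for all 4. Mcm2 to Mcm7, the subunits of the replicative helicase, had differences between -0.58 and 0.05 and none passed. The count of 4 was 8 without spermatogonia replicate 4, 3 without any other spermatogonia array, 2 without leptotene-zygotene replicate 1 and 1 without leptotene-zygotene replicate 2 or 3.

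The promoters of these cell cycle genes are shown because members of the 2 lists moved apart, and the letters that S-phase and mitotic promoters are known for can be looked up in them. Windows of 250 bases before to 50 after the start of a gene were taken from RefSeq (GRCm38.p6) and 8775 of the genes tested had at least 1. The E2F letters TTTCCCGC or TTTGGCGC, on either strand, were in 10 of 28 replication genes with a window (35.7%) and 0 of 23 mitosis genes, and in 3.68% of all genes tested. The CHR letters TTTGAA or TTCGAA, on either strand, known as the cell cycle homology region of mitotic promoters, were in 18 of the 23 mitosis genes (78.3%), 8 of the 28 replication genes (28.6%) and 16.0% of all genes tested. The 2 sets of letters do not contain each other. Over all genes called, the E2F letters were in 6 of 114 falling genes with a window (5.26%) and 1 of 113 rising genes (0.885%). The CHR letters were in 22 of the 114 falling genes (19.3%) and 25 of the 113 rising genes (22.1%). The high shares above thus belong to the 2 lists, most of whose members were not called. In the sequences, 5′ to 3′, capitals mark the E2F letters in E2f2 and Cdc6 and the CHR letters in Cdc20 and Bub1b. Tk1 and Rrm2 held no E2F letters in their windows. Another window of E2f2, not shown, held 0 E2F matches and 1 CHR match.
E2f2, chr4:136172024-136172323, plus strand: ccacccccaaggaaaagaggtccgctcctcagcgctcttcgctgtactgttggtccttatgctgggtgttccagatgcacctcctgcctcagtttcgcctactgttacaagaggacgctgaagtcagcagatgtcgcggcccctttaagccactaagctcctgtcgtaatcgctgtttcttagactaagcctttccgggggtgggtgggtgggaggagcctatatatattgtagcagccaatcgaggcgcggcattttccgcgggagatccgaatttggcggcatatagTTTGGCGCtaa
Cdc6, chr11:98907901-98908200, plus strand: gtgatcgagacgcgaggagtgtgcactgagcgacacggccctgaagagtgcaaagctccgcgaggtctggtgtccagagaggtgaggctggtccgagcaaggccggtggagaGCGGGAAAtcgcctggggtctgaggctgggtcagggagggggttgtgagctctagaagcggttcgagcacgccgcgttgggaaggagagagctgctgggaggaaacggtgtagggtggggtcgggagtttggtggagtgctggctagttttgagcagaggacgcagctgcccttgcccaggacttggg
Cdc20, chr4:118437294-118437593, minus strand: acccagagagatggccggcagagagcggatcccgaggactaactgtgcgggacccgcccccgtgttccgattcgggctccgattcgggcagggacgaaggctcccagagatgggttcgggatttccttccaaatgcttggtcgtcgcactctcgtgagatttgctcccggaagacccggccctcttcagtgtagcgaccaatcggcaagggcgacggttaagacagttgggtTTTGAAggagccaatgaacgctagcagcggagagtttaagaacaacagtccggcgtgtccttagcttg
Bub1b, chr2:118597961-118598260, plus strand: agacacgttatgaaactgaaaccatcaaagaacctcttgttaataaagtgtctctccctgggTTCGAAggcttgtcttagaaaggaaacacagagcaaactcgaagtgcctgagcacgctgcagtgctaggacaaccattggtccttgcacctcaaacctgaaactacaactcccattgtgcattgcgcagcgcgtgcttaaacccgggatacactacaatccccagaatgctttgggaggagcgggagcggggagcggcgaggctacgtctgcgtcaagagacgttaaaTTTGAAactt

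The piRNA pathway had a median of 0.69, with 19 of 20 differences above 0, and 1 member rose (5.0%, beside 1.34% of all genes). Piwil1, the Piwi protein MIWI that binds piRNAs of pachytene cells, was at 9.92, 10.51 and 9.91 in leptotene-zygotene arrays, against 7.29, 7.48, 6.34 and 8.05 in spermatogonia arrays. It rose by 2.83 (standard error 0.33, adjusted p = 0.000455), and was called in all 7 fits without 1 array. Piwil2 (MILI), which acts earlier, was at 12.33, 12.36 and 12.42 in leptotene-zygotene arrays and at 11.61, 10.67, 11.31 and 12.47 in spermatogonia arrays, which overlap, and Tdrd12 and Tdrd5, Tudor domain proteins of the pathway, differed by 0.78 and 0.95 without passing. Without spermatogonia replicate 4, in which the list mean was 9.75 beside 8.82 to 9.01 in the other spermatogonia arrays, 4 members rose, and without spermatogonia replicate 2 the median was 0.44.

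Mybl1, which encodes the transcription factor A-MYB known to drive pachytene genes and piRNA precursors in mouse testis, also rose. It was at 6.46, 6.65 and 7.45 in leptotene-zygotene arrays, against 5.48, 5.15, 4.83 and 5.36 in spermatogonia arrays, with no overlap (difference 1.65, standard error 0.35, adjusted p = 0.0268). Its call was lost without leptotene-zygotene replicate 2 or 3 or spermatogonia replicate 1, 2 or 3. It was the 1 of 14 regulators of meiotic entry that passed (7.14%, beside 1.34% of all genes that rose). Stra8, the gene induced by retinoic acid before meiosis, was at 12.54, 12.05 and 12.32 in leptotene-zygotene arrays, against 11.49, 10.89, 10.98 and 12.32 in spermatogonia arrays, which overlap (difference 0.89, adjusted p = 0.728). Pcgf6, a Polycomb group protein, differed by 1.51 on its brightest probe set (adjusted p = 0.0607), while 1 of its 3 probe sets passed, and Meioc and Ythdc2, which act together on RNA at meiotic entry, by -0.57 and -0.65.

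The letters CAACGG or TAACGG, a core that MYB proteins are known to bind, are shown for rising genes because Mybl1 rose beside them. On either strand they were in 36 of the 113 rising genes with a promoter window (31.9%), in 7 of the 114 falling genes (6.14%) and in 13.2% of all genes tested. A match only describes the letters, and nothing was measured at these promoters. Of the other windows looked up, that of Cers3, the largest rise, held 0 matches, as did another window of Tesmin, and that of Hspa2 held 1. Capitals mark the MYB letters, on either strand, in the windows of Piwil1, Tesmin and Spdya.
Piwil1, chr5:128735996-128736295, plus strand: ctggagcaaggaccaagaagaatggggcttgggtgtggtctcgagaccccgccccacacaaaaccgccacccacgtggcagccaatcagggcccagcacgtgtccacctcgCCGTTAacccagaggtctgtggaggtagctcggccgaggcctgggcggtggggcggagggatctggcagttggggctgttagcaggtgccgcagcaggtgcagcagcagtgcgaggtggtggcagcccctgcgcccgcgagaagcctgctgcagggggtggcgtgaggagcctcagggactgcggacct
Tesmin, chr19:3388607-3388906, plus strand: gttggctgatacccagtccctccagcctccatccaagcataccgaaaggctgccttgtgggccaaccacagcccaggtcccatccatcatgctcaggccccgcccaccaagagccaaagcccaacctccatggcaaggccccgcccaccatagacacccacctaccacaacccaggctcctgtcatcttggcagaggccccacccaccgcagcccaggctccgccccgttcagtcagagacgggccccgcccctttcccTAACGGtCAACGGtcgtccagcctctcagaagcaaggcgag
Spdya, chr17:71551811-71552110, plus strand: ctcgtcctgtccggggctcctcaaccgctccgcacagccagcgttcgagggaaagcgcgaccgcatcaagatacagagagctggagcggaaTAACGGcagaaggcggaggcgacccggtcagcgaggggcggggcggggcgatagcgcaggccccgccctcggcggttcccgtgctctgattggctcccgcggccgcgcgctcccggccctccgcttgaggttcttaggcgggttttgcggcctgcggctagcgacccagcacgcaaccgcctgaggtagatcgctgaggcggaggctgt

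The lists of the recombination and synapsis machinery held few calls, as short lists would at the share of all genes called. Of 11 synaptonemal complex and axis genes, 3 meiotic cohesins, 6 genes of break formation, 7 of crossover formation and 17 of the checkpoint and of meiotic silencing, 0 rose and 0 fell in limma, where 2.70% of all genes were called. Their medians were 0.25, 0.06, -0.33, -0.44 and -0.03, and lay between -0.49 and 0.42 in the fits without 1 array. At an unadjusted p under 0.05, 2 axis genes were higher, 1 break gene was higher and 1 lower, 2 checkpoint genes were higher and 1 lower, and 0 cohesins and 0 crossover genes were past it. Over all genes tested, 9.73% were higher and 8.46% lower at that level. Without spermatogonia replicate 4, 1 break gene rose and 1 fell, and 1 crossover gene fell. With values under 5 raised to 5, 1 axis gene rose, Sycp3 (adjusted p = 0.0442 in limma). Hormad1 and Sycp2, axis proteins, had the highest differences of the axis list, 0.93 and 0.91 (adjusted p = 0.445 and 0.128). Mei1 and Mei4, needed for breaks, differed by -0.51 and -0.35. Msh4, a crossover protein, was at 6.43, 7.35 and 5.57 in leptotene-zygotene arrays and 5.94, 5.67, 5.84 and 4.61 in spermatogonia arrays, which overlap.

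Spdya, which encodes Speedy A, the activator of CDK2 at telomeres, was the 1 of 11 genes of telomere attachment that rose (9.09%, beside 1.34% of all genes). It was at 9.51, 9.81 and 10.66 in leptotene-zygotene arrays, against 8.46, 8.36, 8.14 and 8.02 in spermatogonia arrays, with no overlap (difference 1.75, standard error 0.35, adjusted p = 0.0208). The call was lost without leptotene-zygotene replicate 2 or 3. Its partner Cdk2 differed by 0.27, and Terb1 and Majin, which tie telomeres to the nuclear envelope, by 0.42 and -0.07. Nipbl, the cohesin loader, was the 1 of 11 general cohesin genes that rose (9.09%, beside 1.34% of all genes). It rose by 1.34 (adjusted p = 0.0475 in limma). This call was lost in 5 of the 7 fits without 1 array, those without leptotene-zygotene replicate 2 or 3 or spermatogonia replicate 1, 2 or 3. Smc1a, the somatic partner of Smc3, differed by -0.84 and did not pass.

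Genes known for pachytene spermatocytes rose in part. Of 18 tested, 3 rose (16.7%, beside 1.34% of all genes), 1 fell (5.56%, beside 1.36%) and the median was 1.13. Tesmin, a metallothionein-like protein of meiotic cells, was at 9.35, 9.68 and 9.31 in leptotene-zygotene arrays, against 7.13, 8.10, 6.88 and 6.87 in spermatogonia arrays, and rose by 2.20 (adjusted p = 0.0102). Hspa2, the heat shock protein of pachytene cells, rose by 1.81 and Piwil1 by 2.83. Adam2, a sperm surface protein, had a larger difference, 3.05, that did not pass (adjusted p = 0.0619). The gene that fell was Hspa1l, a heat shock protein of late germ cells, by 2.50. Without spermatogonia replicate 4 the number that rose was 7, without leptotene-zygotene replicate 1 it was 5, without leptotene-zygotene replicate 2 it was 1, and without spermatogonia replicate 1 or 3 or leptotene-zygotene replicate 3 it was 2.

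Among metabolic genes, Slc2a3, the glucose transporter GLUT3, rose, at 13.33, 13.94 and 14.51 in leptotene-zygotene arrays against 10.60, 12.02, 9.89 and 12.27 in spermatogonia arrays (difference 2.74, standard error 0.59, adjusted p = 0.0273). It was the 1 of 20 glycolysis genes that rose (5.0%, beside 1.34% of all genes). The 1 that fell (5.0%, beside 1.36%) was Gapdhs, the sperm form of glyceraldehyde phosphate dehydrogenase, by 2.42. The Slc2a3 call was lost without spermatogonia replicate 1 or 3 or leptotene-zygotene replicate 2 or 3, and the Gapdhs call in 5 of the 7 fits, all but those without spermatogonia replicate 3 or 4. The list's median was 0.33. Ldhc, the testis lactate dehydrogenase, differed by 1.15 and Hk1 by -1.42, and neither passed. Cyct and Cox7b2, germ cell forms of respiratory proteins, rose by 1.20 and 1.08 and were picked after their values were seen.

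The largest falls were of leukocyte genes. Of 20 macrophage genes listed 16 passed the filter on low values, 12 of them with all leptotene-zygotene arrays under 5, so that these passed through spermatogonia arrays alone and had to differ. Of the 16, 8 fell (50%, beside 1.36% of all genes) and 0 rose, and the median was -4.59. When values under 5 were raised to 5 the median was -2.23, with 6 falls. The 4 that did not pass the filter include Cd163, at 2.17 to 2.30 in leptotene-zygotene arrays and 2.18 to 2.31 in spermatogonia arrays, and Itgam, at 2.27 to 2.41 in leptotene-zygotene arrays and 2.26 to 2.42 in spermatogonia arrays. Lyz2, a lysozyme of macrophages and neutrophils, was at 3.32, 3.14 and 3.52 in leptotene-zygotene arrays, against 7.79, 8.88, 9.13 and 10.28 in spermatogonia arrays (difference -5.70, standard error 0.59, adjusted p = 0.000229). Its near copy Lyz1 shares sequence with it, so the probe sets of the pair may not be told apart. Ptprc (CD45), on all leukocytes, was at 2.47, 2.38 and 2.49 in leptotene-zygotene arrays, against 7.95, 7.01, 7.91 and 9.43 in spermatogonia arrays. Both fell by over 5 in log2, and both were called in all 7 fits without 1 array. With all leptotene-zygotene arrays under 5, both passed the filter through spermatogonia arrays alone and had to differ. With values under 5 raised to 5 the differences were -4.02 for Lyz2 and -3.08 for Ptprc.

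The other leukocyte genes among the 12 largest falls were Cxcl2, a chemokine, S100a4, a calcium-binding protein, Cd74, the invariant chain of class II molecules, Ctss, cathepsin S, the class II genes H2-Ea and H2-Eb1, and Il1b, interleukin 1 beta. Their differences lay between -5.71 for Cxcl2 and -4.33 for Il1b. In Cxcl2, S100a4, Ctss, H2-Eb1 and Il1b all leptotene-zygotene arrays lay under 5. These genes passed the filter through spermatogonia arrays alone and had to differ. In leptotene-zygotene replicate 1 H2-Ea was at 5.45 and Cd74 at 7.09, and their other leptotene-zygotene arrays lay under 5. With values under 5 raised to 5 the differences were smaller, -3.39 for Cxcl2, -2.72 for S100a4 and -2.62 for Il1b, and H2-Ea no longer passed (difference -3.32, adjusted p = 0.0655). H2-Ea had a second probe set that differed by -0.95 and did not pass. The defining marker Csf1r was at 2.74, 2.13 and 2.11 in leptotene-zygotene arrays and at 9.70, 6.90, 5.56 and 7.84 in spermatogonia arrays (adjusted p = 0.0525), and Adgre1 stayed under 5 in all 7 arrays. The mean of the macrophage list was 2.98 to 3.94 over leptotene-zygotene arrays and 5.81 to 8.55 over spermatogonia arrays, and it stood at 4.69 in pre-leptotene cells and between 3.30 and 3.51 in the later fractions. The count was 13 without spermatogonia replicate 3, 5 without spermatogonia replicate 1, and 2 and 3 without leptotene-zygotene replicates 2 and 3. The part of such cells in other differences was not tested.

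Genes of peritubular and stromal cells ran alongside. Of 12 genes listed 7 passed the filter on low values, 3 of them with all leptotene-zygotene arrays under 5. These 3 passed through spermatogonia arrays alone and had to differ. Of the 7 tested, 2 fell (28.6%, beside 1.36% of all genes) and 0 rose, with a median of -2.64. With values under 5 raised to 5 the median was -1.45, with 3 falls. Col3a1, a fibrillar collagen, was at 4.02, 3.02 and 3.76 in leptotene-zygotene arrays, against 6.96, 7.44, 5.61 and 9.29 in spermatogonia arrays, and fell by 3.73, or by 2.33 with values under 5 raised to 5. Dcn, decorin, was at 6.18, 5.36 and 7.79 in leptotene-zygotene arrays, against 9.17, 10.63, 8.52 and 13.28 in spermatogonia arrays (difference -3.95, adjusted p = 0.0571). The muscle genes Acta2 and Myh11 differed by -0.96 and -0.61 and did not pass. Spermatogonia replicate 4 was the highest array for Col3a1, Dcn, Acta2 and Myh11 alike. The 2 calls were 0 without leptotene-zygotene replicate 2 or 3, 1 without leptotene-zygotene replicate 1 or spermatogonia replicate 2, and 3 without spermatogonia replicate 3 or 4, and the median was -1.71 without spermatogonia replicate 4.

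Sertoli and Leydig markers did not run that way, though only 10 of 18 Sertoli and 2 of 10 Leydig genes listed were tested. Of 8 lymphocyte genes listed 1 was tested, Cd3g, which fell by 2.26 (adjusted p = 0.0342 in limma). It passed the filter through spermatogonia arrays alone and had to differ. With values under 5 raised to 5 its difference was -0.14 and did not pass. The 10 Sertoli genes tested were all above 0 in difference, with 0 calls in limma and a median of 0.95. At an unadjusted p under 0.05, 1 was higher, beside 9.73% of all genes. The mean of the 10 was 8.82 to 9.24 in leptotene-zygotene arrays and 8.09 to 8.36 in spermatogonia arrays. Of the defining Sertoli genes, Wt1 was at 5.57 to 6.03 in leptotene-zygotene arrays and 4.87 to 6.30 in spermatogonia arrays, and Sox9 was at 3.22 to 3.50 in leptotene-zygotene arrays and 3.22 to 3.51 in spermatogonia arrays. Cyp17a1, the Leydig cell enzyme, was at 7.59, 7.38 and 7.57 in leptotene-zygotene arrays and at 5.70, 5.16, 5.06 and 7.01 in spermatogonia arrays and did not pass (difference 1.78, adjusted p = 0.204). The part of these cells in the differences was not tested.

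The third group of falls was of spermatid genes. Of 33 tested, 8 fell (24.2%, beside 1.36% of all genes) and 0 rose, with a median of -0.94, beside 0.04 over all genes. Akap4, the main protein of the fibrous sheath of the sperm tail, was at 10.16, 9.93 and 10.00 in leptotene-zygotene arrays, against 13.43, 14.30, 12.37 and 11.10 in spermatogonia arrays (difference -2.77, standard error 0.54, adjusted p = 0.0175). All 3 Akap4 probe sets passed, the brightest of which may also bind related transcripts. Tssk6, a kinase of spermatids, fell by 3.03, Cabs1 by 2.82, Tssk3 by 2.79 and Odf1, of the outer dense fibres, by 2.46 on 1 of its 3 probe sets, and Prm2, a protamine, was still at 12.43 to 13.10 in leptotene-zygotene arrays beside 13.48 to 15.36 in spermatogonia arrays. For each of these 6 genes spermatogonia replicate 2 was the highest array and spermatogonia replicate 4 the lowest of the 4.

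Osbp2, an oxysterol-binding protein that belongs to no list, was among the 12 largest falls with the same order of arrays. It was at 7.32, 5.33 and 6.69 in leptotene-zygotene arrays, against 11.10, 12.40, 9.05 and 8.49 in spermatogonia arrays (difference -3.81, adjusted p = 0.0211), while its second probe set differed by 0.31 and did not pass.

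Within the spermatid list the members did not go together. Some members had positive differences that did not pass. Acr, acrosin, was at 7.67, 8.35 and 10.11 in leptotene-zygotene arrays, against 5.36, 7.37, 5.24 and 6.95 in spermatogonia arrays (difference 2.48, adjusted p = 0.0544 in limma). Zpbp2 and Catsper2 differed by 1.81 and 1.64. Of the 33 members 14 were above 0 and 19 below. The list's mean was 8.99, 8.90 and 9.72 in leptotene-zygotene arrays and 9.87, 11.12, 9.21 and 9.13 in spermatogonia arrays. The 4 testis histone variants tested, known from spermatids, had a median of -2.46 with 0 calls in limma. Of these variants 3 were lower at an unadjusted p under 0.05, beside 8.46% of all genes, and 3 fell without spermatogonia replicate 4. The count of 8 falls in the spermatid list was 14 without spermatogonia replicate 4, 5 without leptotene-zygotene replicate 1 and 3 without spermatogonia replicate 2. It was 0 without spermatogonia replicate 1 or leptotene-zygotene replicate 2 or 3. Within array projects the direction differed: the list's median was -1.01 for leptotene-zygotene replicate 1 minus spermatogonia replicate 1 and 0.76 for leptotene-zygotene replicate 3 minus spermatogonia replicate 4.

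Of 30 lists tested, 22 had medians of the same sign in both project pairs and 8 did not. The cilium list had a median of 0.93 in the first pair and 2.02 in the second, the mitosis list 0.40 and 0.79, the replication list -0.34 and -0.41, and the macrophage list -4.82 and -5.09, where the medians over all genes were 0.04 and -0.03. Besides the spermatid list, the stem and progenitor list changed sign, with 0.31 and -0.44, as did glycolysis, with 0.43 and -0.09, and crossover formation, with -0.24 and 0.08. The other 4 were strand exchange, meiotic cohesin, DNA methylation and endothelial genes. With project as a random block the fit called 12 rises of cilium genes, 9 of pachytene genes, 9 of mitosis genes and 2 of axis genes, and 14 falls of macrophage genes, 12 of spermatid genes, with 3 rises, 6 of replication genes and 5 of immediate early genes. It also called 4 falls of stromal genes, 3 of testis histone variants, 1 rise of break formation genes, 2 of Sertoli genes, 2 of piRNA genes, and 1 rise and 1 fall of stem and progenitor genes.

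**Figure D3:**
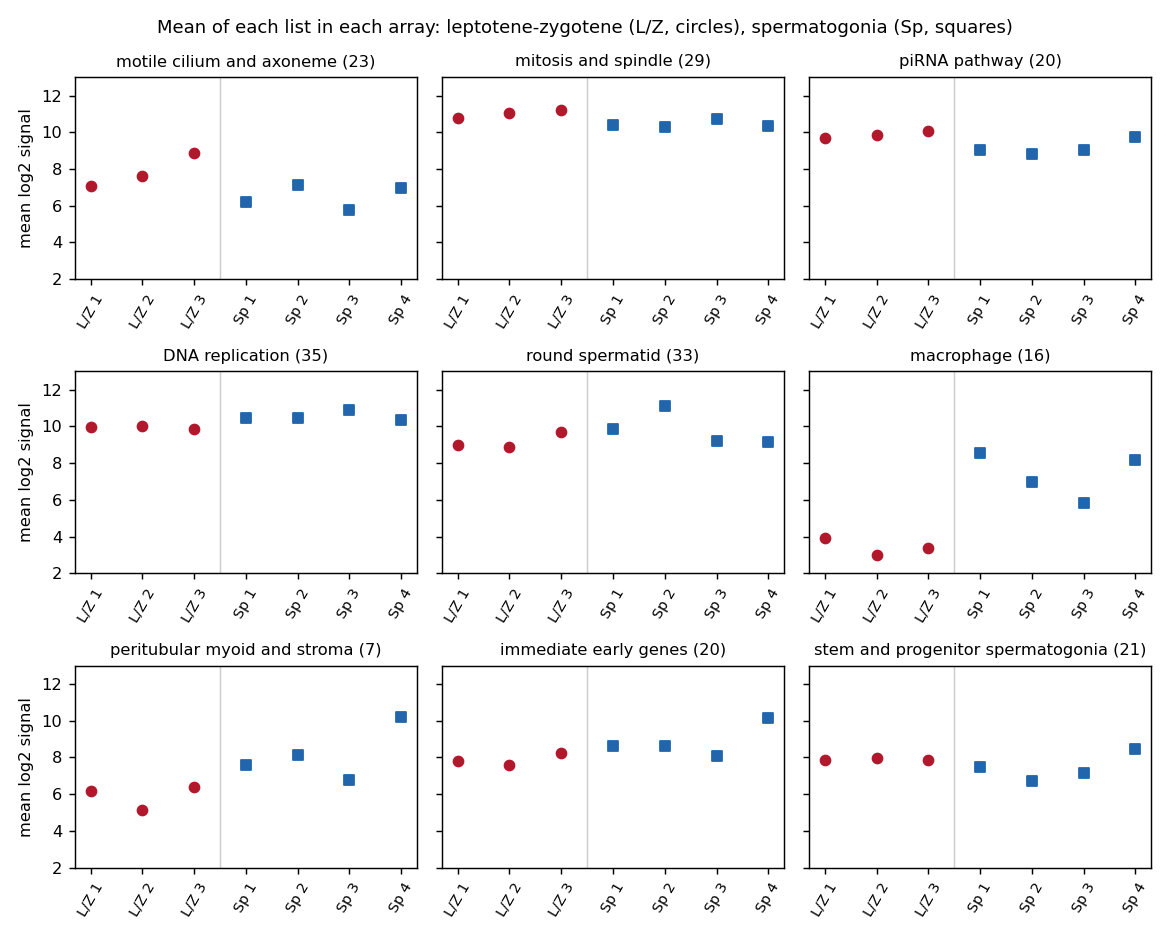
Mean log2 GC-RMA signal over the tested members (number in brackets) of 9 gene lists in each of the 3 leptotene-zygotene arrays (L/Z, circles) and 4 spermatogonia arrays (Sp, squares). The macrophage list separates the fractions by the widest gap, 2.98 to 3.94 against 5.81 to 8.55, and spermatogonia replicate 4 is the highest array for the immediate early and the stromal lists.

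Immediate early genes, which cells switch on within minutes of stress or handling, gave 0 calls of 20 in limma, where 2.70% of all genes were called. Of the 20, 7 were lower at an unadjusted p under 0.05, beside 8.46% of all genes. Their median difference was -1.0, with 18 differences below 0. Their mean was 7.59 to 8.22 in leptotene-zygotene arrays and 8.08 to 10.16 in spermatogonia arrays, highest in spermatogonia replicate 4. With array project as a fixed block the fit called 6 falls and the median was -1.46. Fos was at 12.01, 11.60 and 12.07 in leptotene-zygotene arrays and at 12.50, 12.51, 11.72 and 14.09 in spermatogonia arrays. Without spermatogonia replicate 4 the list's median was -0.47, and without spermatogonia replicate 3 the fit called 3 falls. The part of handling in other differences was not tested.

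**Figure D4:**
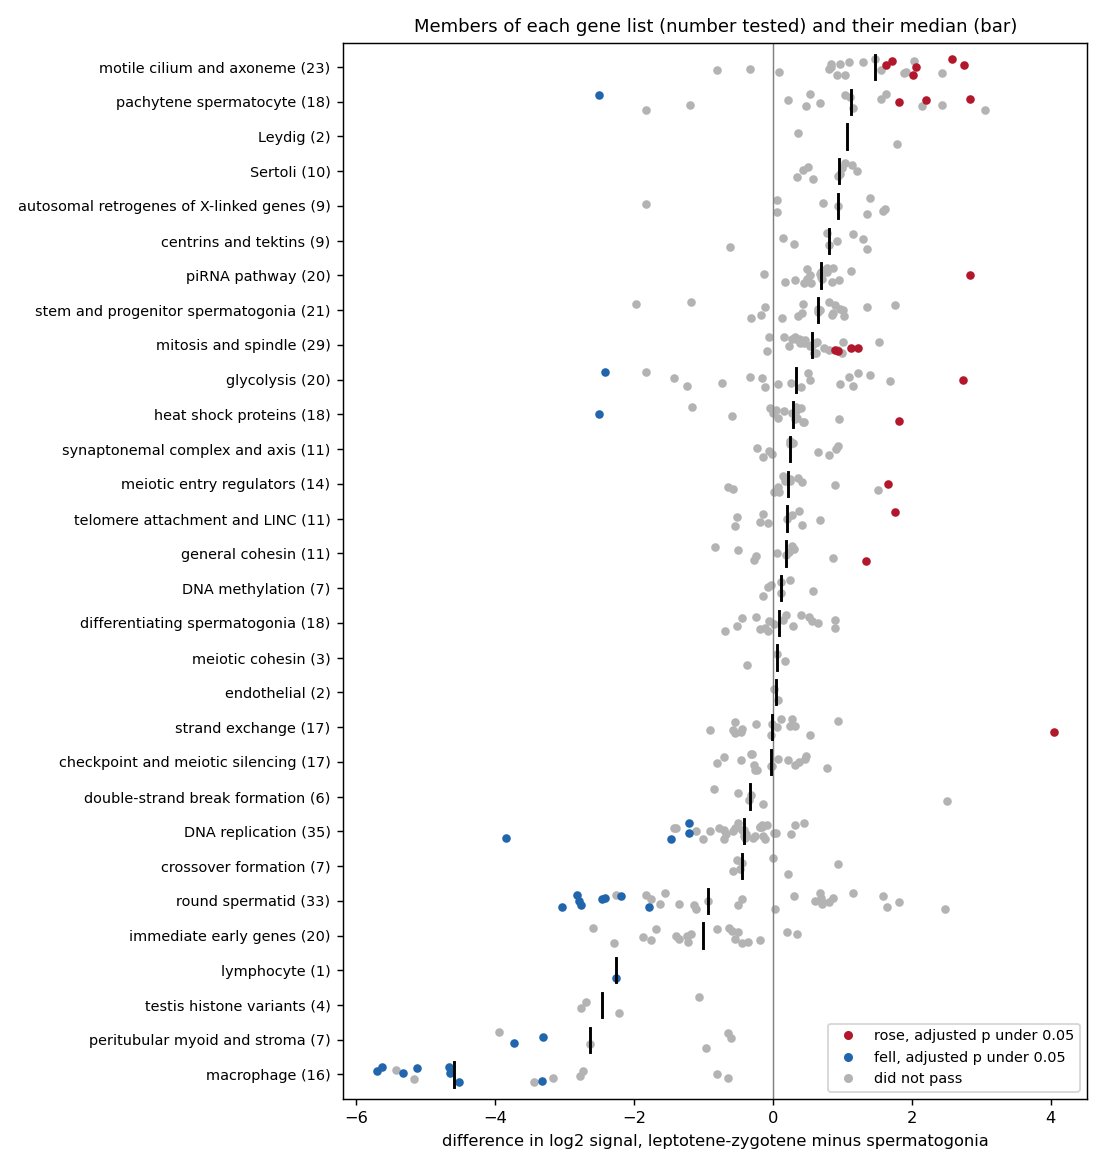
Difference in log2 GC-RMA signal, leptotene-zygotene minus spermatogonia, for every tested member of 30 gene lists (points, number tested in brackets) with the list's median (bar), sorted by median; coloured points passed at an adjusted p under 0.05 in limma. Cilium and axoneme genes lie highest, at a median of 1.47, and macrophage genes lowest, at -4.59, while the axis list lies at 0.25 and crossover formation at -0.44.

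On chromosome X, 2 of 337 genes rose (0.593%) and 6 fell (1.78%), where 1.36% and 1.35% of 10306 autosomal genes did. The median difference was -0.20 on X and 0.05 on the autosomes, whose own medians ran between 0.00 and 0.09, and 64.7% of X genes were below 0, beside 46.2% of autosomal ones. The mean level of the X genes was 8.18, 7.96 and 7.88 in leptotene-zygotene arrays and 8.42, 8.09, 8.42 and 8.16 in spermatogonia arrays, which overlap. Within projects the X median was -0.13 and -0.20. By the rule for naming, 0 rises and 2 falls on X qualified. These were Tspan6, a tetraspanin, which fell by 2.58 on 1 of its 2 probe sets, and Satl1, which fell by 2.64, both highest in spermatogonia replicate 2, as was X-linked Akap4.

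Of the remaining genes that the study names, Odc1, of polyamine synthesis, and Prdx4, a peroxiredoxin on X, did not pass, with differences of 0.03 and -0.45. The study gives Odc1, with its many pseudogenes, as an example of multiple-copy probe sets among the outliers of its X analysis. Odc1 was at 10.78, 10.84 and 10.95 in leptotene-zygotene arrays and at 10.70, 11.19, 10.64 and 10.78 in spermatogonia arrays. Tekt1 to Tekt4, filament proteins of the sperm tail, differed by 0.80 to 1.30 and Tekt5 by -0.62, and in all 5 the arrays of the fractions overlapped. Oaz3, the antizyme of spermatids, which lies outside the lists and was picked after its values were seen, fell by 2.93 (adjusted p = 0.0208), with 10.94, 10.07 and 9.64 in leptotene-zygotene arrays against 13.99, 14.65, 12.28 and 11.68 in spermatogonia arrays.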

How the data were processed

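RNA of sorted testis cells was hybridised to Affymetrix MOE430 version 2 arrays, and the authors deposited 1 linear GC-RMA intensity per probe set and array (the labels name GCRMA, with no version; the methods place it in GeneSpring). The log2 of the deposited intensity was taken here, with no pseudocount. Probe sets with log2 of at least 5 in at least 2 of the 7 arrays were kept. Each probe set was fitted with limma 3.58.1 (R 4.3.3) over 20 arrays and 8 fractions (12 residual degrees of freedom), with two-sided moderated tests and Benjamini-Hochberg adjustment over 19079 probe sets at 0.05. Where nothing says that the pools share no animals, p-values measure the spread between these pools, which may be partly technical.

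Of 45037 probe sets, 34945 carry 1 gene symbol, 932 several and 9160 none in the platform annotation. A gene stands by its probe set of highest mean over the 7 arrays. Named are the 12 largest rises and falls with arrays that do not overlap and a mean log2 of at least 7 in the higher fraction (predicted genes and _x_at probe sets passed over), at most 6 called and 4 other members of each list, genes the study names, and up to 5 rises and falls on X. The members and the 31 gene lists were chosen with earlier results of these data known. Array projects were matched through equal signals in a signal table of the study. Python 3.11.15 with numpy 2.4.6, pandas 2.3.3 and matplotlib 3.10.9 made the tables and plots, and the fit was tested on simulated data. The number of arrays limits the precision.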

Additional observations from a re-analysis of the deposited data

How the results depend on the processing

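The 231 rises and 194 falls depended on the arrays and on the estimate of the spread. Leaving out 1 array at a time gave 29 to 749 rises and 18 to 745 falls, the lowest without leptotene-zygotene replicate 2 and the highest without spermatogonia replicate 4. A fit of the 7 arrays alone called 8 rises and 12 falls, no filter on low signals 107 and 72, and a test against a minimum change of 0.5 called 25 and 25. With array project as a random block the counts were 815 and 585, and as a fixed block 372 rises, with 240 falls. The cause of these changes was not tested. Of the arrays that share a replicate number only replicates 1, which are also of 1 project, deviated together (correlations 0.702, -0.177 and -0.0871), so the numbers do not pair the samples. The other arrays of 1 project, leptotene-zygotene replicate 3 and spermatogonia replicate 4, gave 0.25. With the replicate block the counts were 1011 rises and 948 falls over 18 arrays, and 0 and 0 over the 7 arrays in limma, where 4073 probe sets had an unadjusted p under 0.05. Of 520 combinations of 26 named genes and 20 alternatives, 386 kept direction and call, 134 kept direction but lost the call, and 0 reversed. The 26 genes were picked from these data for large called differences with arrays that do not overlap. Fits without 1 array could therefore not reverse them, and the 0 is no measure of stability.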
